A study of Homo sapiens with 12 samples.

Results

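Transcripts of Hsp90, of the co-chaperones that work with it and of HSF1, the factor that induces many of them, were followed in 12 samples labelled PC3. The set was listed by gene name, with earlier results of these data known. It holds 10 genes: HSP90AA1, HSP90AB1, TRAP1, AHSA1, CHORDC1, CDC37, STIP1, PTGES3, FKBP4 and HSF1. Of these, 9 had at least 1 probe set annotated to that symbol alone, and they are 9 of the 19775 genes tested. Signals of AHSA1 were not analysed here. The samples formed 4 groups of 3, all of them the prostate cancer line PC3 by their labels. One group received both drugs, that is Wee1 inhibitor II at 2.5 µM and, 24 h later, 17-AAG at 40 nM. The other groups received 17-AAG alone at 40 nM, Wee1 inhibitor II alone at 2.5 µM, or neither drug. The controls are called untreated in the labels, whereas the treatment protocol states that they received vehicle. RNA was taken 48 h after the addition of 17-AAG and measured on Affymetrix 3-prime expression arrays. Control replicate 2 is marked in its title as weak in signal and was left out here, which leaves 11 arrays for the comparisons, 2 of them controls.

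Hsp90 is an ATP-driven chaperone that completes the folding of kinases, steroid receptors and other client proteins, and co-chaperones load the clients, pace the ATP cycle and recruit further partners. 17-AAG occupies the ATP pocket of Hsp90. In unstressed cells Hsp90 also holds HSF1 inactive, and Hsp90 inhibitors are known for freeing HSF1, which binds heat shock elements, inverted repeats of a GAA unit, and raises transcripts of Hsp90, Hsp70 and several co-chaperones. Wee1 is the kinase that keeps CDK1 inactive before mitosis.

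Promoter windows of the members were searched for that element, and the 4 windows that hold a match are shown. RefSeq windows (GRCh38.p14) run from 250 bases before to 50 bases after an annotated transcript start. HSF1 was not searched. Of the other 9 members, 8 had at least 1 window in the table used, and FKBP4 had none. Pairs of units (GAANNTTC or TTCNNGAA, which read the same on both strands) and runs of 3 alternating units, in which a pair of each kind shares its middle unit, were searched. A pair was present in 13.5% and a run of 3 units in 0.49% of 35116 windows of 300 bases. Among the members, a pair lay in windows of HSP90AA1, HSP90AB1, CHORDC1 and STIP1, and a run of 3 units in windows of HSP90AA1, HSP90AB1 and CHORDC1. In the sequences below, written 5′ to 3′ along the gene, capitals mark these matches. The HSP90AA1 window is chr14:102086995-102087294 on the minus strand, the HSP90AB1 window chr6:44247693-44247992 on the plus strand, the CHORDC1 window chr11:90223000-90223299 on the minus strand and the STIP1 window chr11:64185921-64186220 on the plus strand.
HSP90AA1: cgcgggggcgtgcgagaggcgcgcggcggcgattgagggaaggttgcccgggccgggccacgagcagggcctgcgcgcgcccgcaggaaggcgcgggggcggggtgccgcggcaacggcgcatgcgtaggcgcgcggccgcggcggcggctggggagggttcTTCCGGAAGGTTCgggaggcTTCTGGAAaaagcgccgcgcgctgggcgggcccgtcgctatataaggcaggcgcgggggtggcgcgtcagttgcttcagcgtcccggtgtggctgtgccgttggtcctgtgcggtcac
HSP90AB1: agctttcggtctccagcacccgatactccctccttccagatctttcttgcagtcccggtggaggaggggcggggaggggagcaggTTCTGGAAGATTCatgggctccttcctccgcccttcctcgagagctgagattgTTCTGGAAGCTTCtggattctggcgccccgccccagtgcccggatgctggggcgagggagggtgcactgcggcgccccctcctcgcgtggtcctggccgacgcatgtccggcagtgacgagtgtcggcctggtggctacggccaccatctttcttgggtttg
CHORDC1: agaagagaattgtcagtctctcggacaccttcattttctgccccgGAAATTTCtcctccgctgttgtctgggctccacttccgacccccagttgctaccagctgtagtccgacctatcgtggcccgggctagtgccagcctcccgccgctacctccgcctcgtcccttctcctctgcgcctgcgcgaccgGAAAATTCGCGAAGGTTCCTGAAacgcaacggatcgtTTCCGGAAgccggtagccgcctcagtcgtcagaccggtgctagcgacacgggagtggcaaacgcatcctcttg
STIP1: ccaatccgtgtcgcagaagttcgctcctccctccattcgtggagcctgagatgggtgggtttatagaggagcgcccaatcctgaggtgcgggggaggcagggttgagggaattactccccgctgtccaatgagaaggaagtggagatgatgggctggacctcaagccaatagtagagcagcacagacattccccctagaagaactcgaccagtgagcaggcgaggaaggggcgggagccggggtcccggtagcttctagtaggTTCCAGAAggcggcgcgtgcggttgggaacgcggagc
In CHORDC1 the units ran on for 23 bases, and in both Hsp90 genes the longest run was 13 bases. STIP1 held a single pair of 8 bases. HSP90AA1 and STIP1 have 1 further window each and HSP90AB1 has 2 without a match, as have the windows of TRAP1, AHSA1, CDC37 and PTGES3. A match of letters describes the sequence and does not show that a factor binds there.

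A gene was read from its brightest probe set, as the log2 of the deposited signal, and the groups were compared with limma over all genes. A gene is said to have risen, fallen or changed only at a Benjamini-Hochberg adjusted p under 0.05. The median change of all genes was 0.11 for both drugs, 0.01 for 17-AAG and 0.12 for Wee1 inhibitor II against control (log2), and the values below include these shifts. Relative to them CHORDC1, the member with the largest changes, stood at -0.71, -1.09 and -1.38. The 11 arrays went against the PC3 label. Of 9 measured pigment cell markers 9 had a signal of at least 100 on all 11 arrays, as had CTNNA1 and STAT3, which are reported deleted in PC3. Of 10 measured epithelial and prostate markers 6 stayed below 32, among them EPCAM (at most 26.2) and HOXB13 (at most 11.3). Going the other way, 2 had at least 100 on all 11 arrays, namely KRT18 (453 to 650) and ESRP1 (142 to 728). The summed pigment marker signal ran from 53800 to 55200 with both drugs, 44900 to 50000 with 17-AAG, 32500 to 35000 with Wee1 inhibitor II and 36300 to 37300 in control. The gap between the 3-prime and 5-prime ACTB probe sets, a sign of RNA quality, averaged 0.96 ± 0.05 with both drugs, 0.96 ± 0.08 with 17-AAG, 0.68 ± 0.09 with Wee1 inhibitor II and 0.69 ± 0.03 in control (log2, SD, n = 3, 3, 3 and 2). For GAPDH the same gap was -0.01 ± 0.02, -0.04 ± 0.04, -0.05 ± 0.04 and -0.06 ± 0.00 in that order, so it did not show the ACTB difference. The part of the marker signals or of these gaps in the results below was not tested. In RNA of whole cultures, fewer cells of a kind and less RNA per cell cannot be told apart.

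Each drug alone lowered transcripts of some co-chaperones, whereas the Hsp90 genes themselves passed the test in none of the comparisons with control. The transcripts of CHORDC1, STIP1 and PTGES3 fell with 17-AAG alone, and those of CHORDC1, STIP1, PTGES3 and FKBP4 fell with Wee1 inhibitor II alone. Under other processing Hsp90 genes were called. After quantile normalisation HSP90AA1 was called lower with Wee1 inhibitor II (-0.40, adjusted p = 0.00563 in limma) and HSP90AB1 lower with 17-AAG (-0.36, adjusted p = 0.0134). HSP90AB1 was called lower (-0.28) and TRAP1 higher (0.27) with 17-AAG when signals below 32 were set to 32, when the dimmest 40% of genes were left out and with trended and robust empirical Bayes. Both drugs together lowered only CHORDC1 and PTGES3 against control in limma. Thus 2 of 9 members changed with both drugs, 3 of 9 with 17-AAG and 4 of 9 with Wee1 inhibitor II. Of all genes tested 28.0% were called for both drugs, 16.7% for 17-AAG and 24.9% for Wee1 inhibitor II. Genes called lower made up 11.3%, 6.80% and 10.3% of all genes in the same order. The members called, all of them lower, were 22.2%, 33.3% and 44.4% of the 9 measured. Apart from that other processing, under which CDC37 was also called higher with both drugs, no member rose in limma in these 3 comparisons. Of all genes 16.7%, 9.93% and 14.5% were called higher. At an unadjusted p under 0.05 in limma, 1 member was higher with both drugs, 1 with 17-AAG and 0 with Wee1 inhibitor II. The 3 comparisons share the same 2 control arrays. As labelled, the falls with 17-AAG run against the rise that Hsp90 inhibitors are known for. They were read at 1 time, 48 h after 17-AAG at 40 nM, so an earlier rise would not be seen. CHORDC1, STIP1 and PTGES3 fell with Wee1 inhibitor II alone as well. The Hsp70 genes HSPA1A and HSPA1B had no probe set of their symbol alone and were not measured. No value here checks which arrays received 17-AAG.

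**Figure D1:**
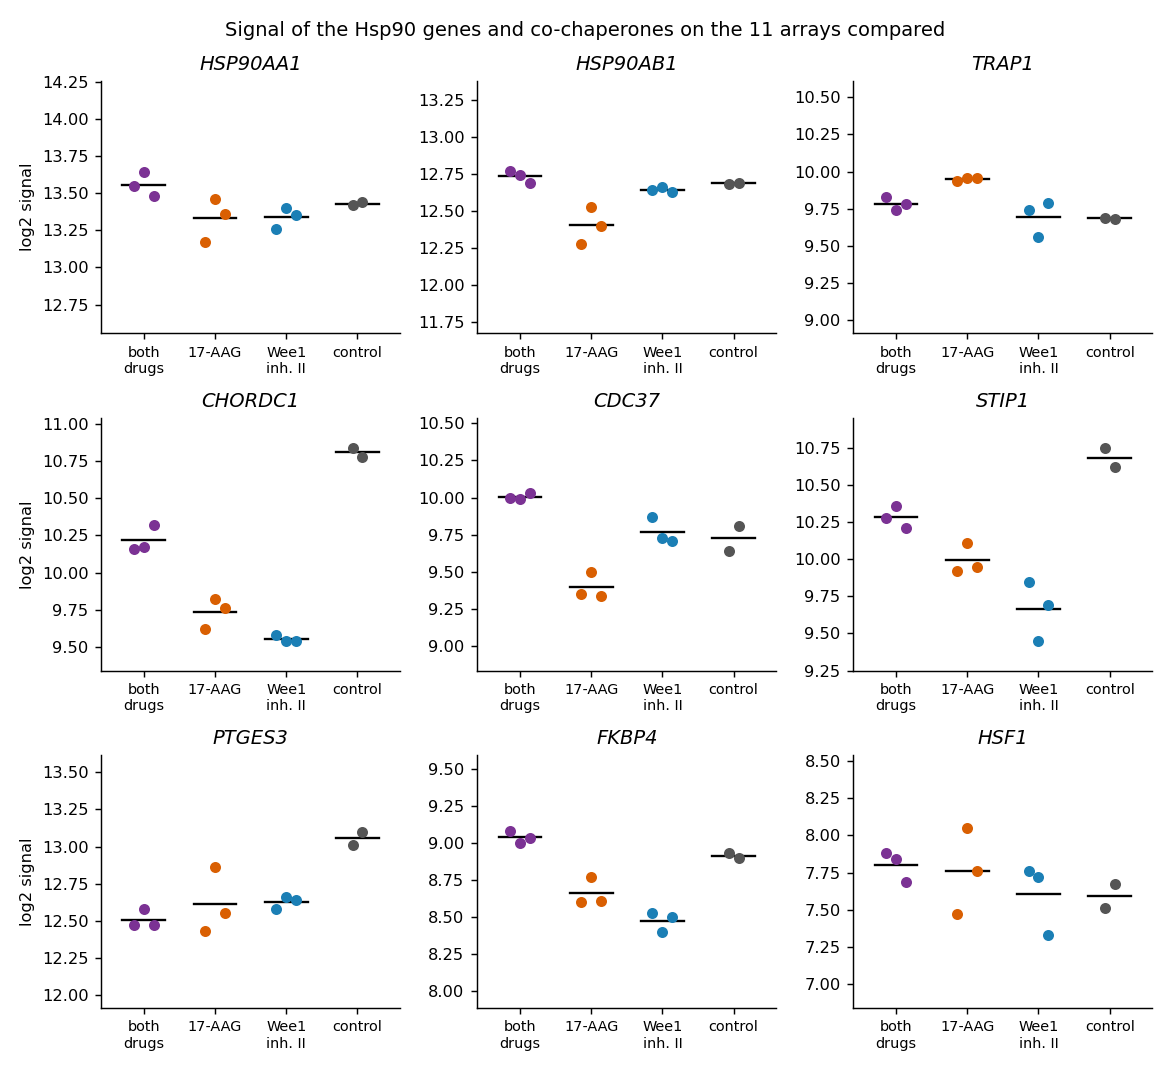
Log2 signal of the main probe set of each member on the 11 arrays compared, 1 point per array, with the group mean as a bar; groups run from both drugs on the left to control on the right, and every panel spans the same height. CHORDC1 and STIP1 are lower in all 3 treated groups than in control, with both drugs between control and the single drugs, while HSP90AA1 and HSF1 vary little between groups.

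HSP90AA1 codes for the stress-inducible cytosolic Hsp90. Its signal was 11960, 12754 and 11458 with both drugs, 9209, 11305 and 10522 with 17-AAG, 9814, 10801 and 10407 with Wee1 inhibitor II, and 10929 and 11120 in control. The arrays with both drugs lay above the controls and those with Wee1 inhibitor II below, without overlap, while the 17-AAG arrays overlapped the controls. None of these differences passed the test. Here and below, overlap only describes the arrays. There are 2 controls, and the share of all genes without overlap is not given here. The log2 fold change against control was 0.13 ± 0.11 for both drugs (SE; adjusted p = 0.452 in limma), -0.10 ± 0.11 for 17-AAG (adjusted p = 0.63) and -0.09 ± 0.11 for Wee1 inhibitor II (adjusted p = 0.607). The 95% confidence interval for 17-AAG ran from -0.34 to 0.15.

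HSP90AB1 codes for the constitutive cytosolic Hsp90. Its signal was 7009, 6820 and 6588 with both drugs, 4959, 5911 and 5393 with 17-AAG, 6399, 6492 and 6325 with Wee1 inhibitor II, and 6558 and 6612 in control. The 17-AAG arrays were the lowest of the 4 groups and overlapped none of them. Against control the change with 17-AAG was -0.28 ± 0.09 and missed the threshold (adjusted p = 0.0678 in limma), as it did for both drugs (0.05 ± 0.09, adjusted p = 0.77) and Wee1 inhibitor II (-0.04 ± 0.09, adjusted p = 0.812). HSP90AB1 was called lower with 17-AAG, at -0.35, when 17-AAG replicate 2 was left out. It was higher with both drugs than with 17-AAG alone by 0.33 ± 0.08 (adjusted p = 0.0225), a call that was lost without 17-AAG replicate 1 or 3, without any 1 array of both drugs, and with each array centred on its median (0.13).

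TRAP1 codes for the Hsp90 of mitochondria. Its signal was 911, 856 and 880 with both drugs, 983, 997 and 997 with 17-AAG, 856, 753 and 883 with Wee1 inhibitor II, and 824 and 818 in control. The 17-AAG arrays were the highest and did not overlap any other group. The difference from control, 0.27 ± 0.09, did not pass (adjusted p = 0.0721 in limma), though it did without Wee1 inhibitor II replicate 2. It was 0.10 ± 0.09 for both drugs and 0.01 ± 0.09 for Wee1 inhibitor II.

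CHORDC1, which codes for an Hsp90-binding protein and whose transcript is itself heat-inducible, changed most among the 9 members. Its signal was 1145, 1156 and 1276 with both drugs, 787, 904 and 868 with 17-AAG, 768, 745 and 742 with Wee1 inhibitor II, and 1836 and 1764 in control. No treated array reached a control array, and all 3 arrays with both drugs lay above all 6 with a single drug. The transcript fell to 0.662 of control with both drugs (-0.60 ± 0.09, adjusted p = 0.00167 in limma), to 0.473 with 17-AAG (-1.08 ± 0.09, adjusted p = 0.000503) and to 0.418 with Wee1 inhibitor II (-1.26 ± 0.09, adjusted p = 8.94e-05). The single drugs differed from each other by 0.18 ± 0.08 (17-AAG minus Wee1 inhibitor II, adjusted p = 0.182). Its promoter window is the one with the 23-base run of units shown above.

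STIP1 codes for Hop, the adaptor that holds Hsp70 and Hsp90 together while a client is handed over. Its signal was 1246, 1311 and 1184 with both drugs, 967, 1109 and 991 with 17-AAG, 921, 698 and 828 with Wee1 inhibitor II, and 1721 and 1573 in control. The groups did not overlap each other, and their order was control, both drugs, 17-AAG and Wee1 inhibitor II from high to low. STIP1 fell by 0.69 ± 0.13 with 17-AAG on the log2 scale (adjusted p = 0.00951 in limma) and by 1.02 ± 0.13 with Wee1 inhibitor II (adjusted p = 0.000984). With both drugs the change was -0.40 ± 0.13 and just missed the threshold (adjusted p = 0.0518), which it passed without Wee1 inhibitor II replicate 1 or 2. The call with 17-AAG was lost without control replicate 1 (-0.62).

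FKBP4 codes for FKBP52, an immunophilin that joins Hsp90 on steroid receptors. Its signal was 541, 511 and 524 with both drugs, 387, 436 and 390 with 17-AAG, 368, 338 and 362 with Wee1 inhibitor II, and 486 and 477 in control. Arrays with both drugs lay above the controls and those with either single drug below them. It fell by 0.44 ± 0.09 with Wee1 inhibitor II (adjusted p = 0.00724 in limma). The changes with 17-AAG (-0.25 ± 0.09, adjusted p = 0.0859) and with both drugs (0.12 ± 0.09, adjusted p = 0.359) did not pass. Without 17-AAG replicate 2 the value for 17-AAG was -0.31 and passed.

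PTGES3 codes for p23, which stabilises the closed, ATP-bound form of Hsp90. Its signal was 5677, 6112 and 5692 with both drugs, 5521, 7423 and 5984 with 17-AAG, 6121, 6459 and 6387 with Wee1 inhibitor II, and 8269 and 8803 in control. All 9 treated arrays were below both controls, and the 17-AAG arrays overlapped those of both drugs and of Wee1 inhibitor II. PTGES3 fell by 0.55 ± 0.13 with both drugs (adjusted p = 0.0118 in limma), by 0.45 ± 0.13 with 17-AAG (adjusted p = 0.045) and by 0.43 ± 0.13 with Wee1 inhibitor II (adjusted p = 0.0379). The call for both drugs was lost without control replicate 3 (-0.51). Those for the single drugs were lost with most arrays left out in turn, at -0.36 to -0.49 for 17-AAG and -0.39 to -0.48 for Wee1 inhibitor II.

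CDC37 codes for the co-chaperone that brings kinases to Hsp90. Its signal was 1024, 1019 and 1046 with both drugs, 654, 725 and 649 with 17-AAG, 938, 850 and 840 with Wee1 inhibitor II, and 800 and 895 in control. The arrays with both drugs were the highest and the 17-AAG arrays the lowest, without overlap with any other group. Against control neither difference passed in limma, with 0.28 ± 0.09 for both drugs (adjusted p = 0.058) and -0.33 ± 0.09 for 17-AAG (adjusted p = 0.0503, and called at -0.38 without 17-AAG replicate 2). It was called higher with both drugs after quantile normalisation (0.34, adjusted p = 0.0284). The floor of 32, leaving out the dimmest 40% of genes, and trended and robust empirical Bayes each called it higher with both drugs (0.28) and lower with 17-AAG (-0.33). Wee1 inhibitor II stood at 0.05 ± 0.09. CDC37 was the one member called between the single drugs, lower with 17-AAG than with Wee1 inhibitor II by 0.37 ± 0.08 (adjusted p = 0.017). That is 1 of 9 members, where 18.7% of all genes were called, 8.52% higher and 10.2% lower. The call was lost with each array centred on its median (-0.14), without 17-AAG replicate 1 or 3 (-0.35 each), without Wee1 inhibitor II replicate 1 (-0.32) and with a replicate block (-0.37).

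HSF1, the transcription factor itself, had a signal of 236, 229 and 207 with both drugs, 177, 266 and 217 with 17-AAG, 217, 210 and 161 with Wee1 inhibitor II, and 183 and 204 in control. The groups overlapped except that the arrays with both drugs lay above both controls. The log2 fold change was 0.21 ± 0.19 for both drugs (95% interval -0.23 to 0.65), 0.17 ± 0.19 for 17-AAG (-0.27 to 0.61) and 0.01 ± 0.19 for Wee1 inhibitor II (-0.43 to 0.45). None passed in limma. Activity of HSF1 is set at the protein, which these arrays do not measure.

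**Figure D2:**
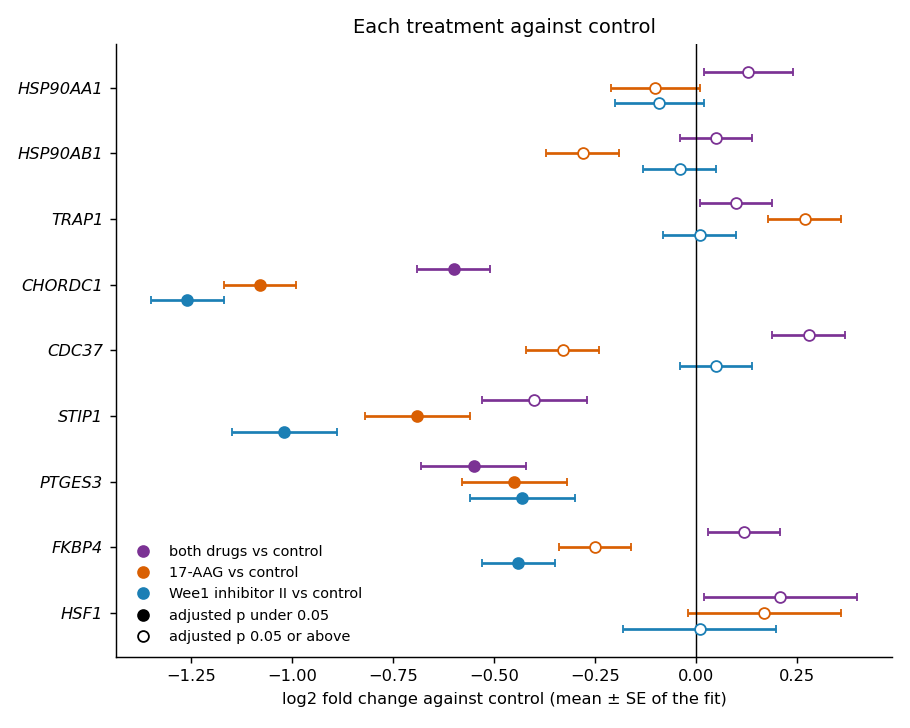
Log2 fold change of each measured member against control, with the standard error of the limma fit as a bar; filled points passed an adjusted p under 0.05 and open points did not. CHORDC1 at -0.60, -1.08 and -1.26 and STIP1 at -0.40, -0.69 and -1.02 are shown for both drugs, 17-AAG and Wee1 inhibitor II in turn, and PTGES3 lies at -0.55 with both drugs.

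CHORDC1 and FKBP4 rose with both drugs against each single drug. Set against 17-AAG alone, 4 members rose with both drugs, namely CDC37 by 0.61 ± 0.08 (log2, adjusted p = 0.00194 in limma), CHORDC1 by 0.48 ± 0.08 (adjusted p = 0.00473), FKBP4 by 0.38 ± 0.08 (adjusted p = 0.0109) and HSP90AB1 as given above. Against Wee1 inhibitor II alone 3 rose, namely CHORDC1 by 0.66 ± 0.08 (adjusted p = 0.00115), STIP1 by 0.62 ± 0.12 (adjusted p = 0.00914) and FKBP4 by 0.56 ± 0.08 (adjusted p = 0.00204). No member fell in either comparison in limma, also at an unadjusted p under 0.05. Of all genes 19.3% were called against 17-AAG, 10.9% higher and 8.43% lower, and 14.1% against Wee1 inhibitor II, 7.27% higher and 6.84% lower. With each array centred on its median CHORDC1 (0.28) and FKBP4 (0.17) were no longer called against 17-AAG. For STIP1, which single drug it rose above depended on the probe set, as given below. With its probe sets averaged the STIP1 call against Wee1 inhibitor II was lost (0.48, adjusted p = 0.0501 in limma). These comparisons do not use the control arrays in their means, but both use the same 3 arrays with both drugs.

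The interaction asks whether both drugs together differ from the sum of the changes that each made alone. It was positive for 4 of 9 members, where 11.8% of all genes were called and 4.82% were called positive and 6.97% negative. For CHORDC1 the single-drug changes summed to -2.34, whereas -0.60 was measured with both drugs, an interaction of 1.74 ± 0.12 (adjusted p = 0.000542 in limma). Put as the effect of 17-AAG, CHORDC1 changed by 0.66 on top of Wee1 inhibitor II and by -1.08 without it. For STIP1 the sum was -1.71 and the measured change -0.40, an interaction of 1.31 ± 0.17 (adjusted p = 0.00358). FKBP4 had a sum of -0.69 and a measured change of 0.12, an interaction of 0.82 ± 0.12 (adjusted p = 0.00459). CDC37 had a sum of -0.28 and a measured change of 0.28, an interaction of 0.56 ± 0.13 (adjusted p = 0.0267). HSP90AB1 (0.37 ± 0.12, adjusted p = 0.0902), PTGES3 (0.33 ± 0.17, adjusted p = 0.279), HSP90AA1 (0.32 ± 0.14, adjusted p = 0.21), HSF1 (0.03 ± 0.26) and TRAP1 (-0.18 ± 0.12) did not pass. Under other processing both cytosolic Hsp90 genes were called positive. For HSP90AB1 this held after quantile normalisation (0.43) and without 17-AAG replicate 2 (0.44). It also held without the dimmest 40% of genes, with the floor of 32 and with trended and robust empirical Bayes (0.37 each). HSP90AA1 was called after quantile normalisation (0.41) and with trended and robust empirical Bayes (0.32). The control arrays enter the interaction with the opposite sign to the single-drug changes, so both share their error. The CDC37 call was lost with a replicate block (0.57), with centring on the array median (0.58) and when any 1 of 8 arrays was left out, namely 17-AAG replicate 1 or 3, any of both drugs, Wee1 inhibitor II replicate 2 or 3, or control replicate 3 (0.48 to 0.57). CHORDC1, STIP1 and FKBP4 stayed called whichever of the 11 arrays was removed. With probe sets averaged per gene the interaction was not called for CHORDC1 (1.57, adjusted p = 0.184 in limma) or FKBP4 (0.79, adjusted p = 0.436). Nor was it for CDC37 (0.56, adjusted p = 0.0614). With control replicate 2 included it was called for no member, at 1.37 for CHORDC1, 0.87 for STIP1 and 0.69 for FKBP4.

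**Figure D3:**
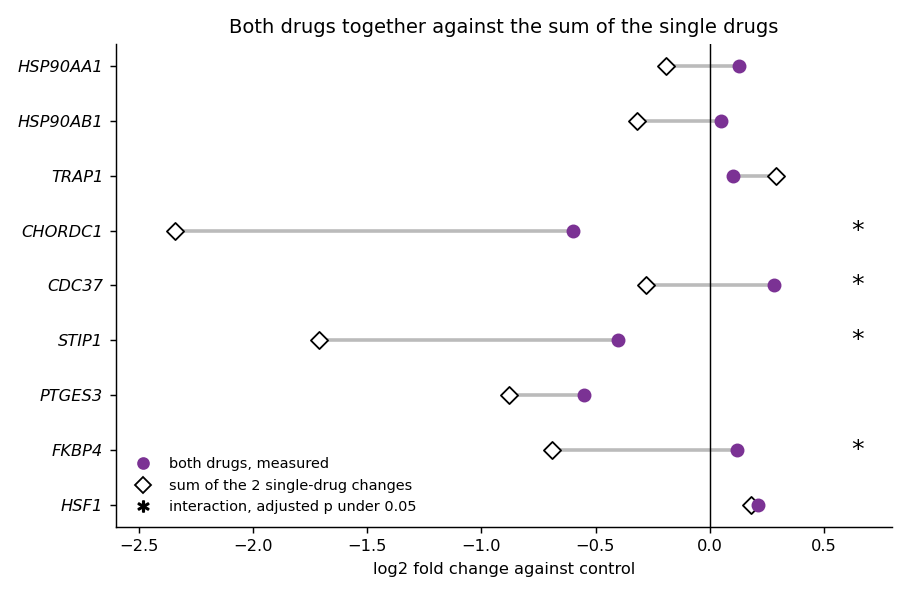
Measured log2 fold change with both drugs against control (filled circles) and the sum of the 2 single-drug changes (open diamonds) for each member, joined by a grey line whose length is the interaction; a star marks an adjusted p under 0.05. For CHORDC1 the sum lies at -2.34 and the measured value at -0.60, and for STIP1 at -1.71 and -0.40.

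Most of these genes were read by more than 1 probe set, 21 in all. The 4 HSP90AA1 probe sets gave -0.17 to 0.13 for both drugs, -0.44 to -0.10 for 17-AAG and -0.46 to -0.09 for Wee1 inhibitor II against control, and none passed when every probe set was tested in limma. For HSP90AB1, the dimmest of 3 probe sets fell with 17-AAG by 0.48 ± 0.11 (adjusted p = 0.0282) and had an interaction of 0.64 ± 0.15 (adjusted p = 0.0394), which the main probe set did not pass, and the remaining one stood at -0.16 ± 0.18 with 17-AAG. The second STIP1 probe set fell with 17-AAG by 1.00 ± 0.15 (adjusted p = 0.00646) and with Wee1 inhibitor II by 0.77 ± 0.15 (adjusted p = 0.0101), so the order of the single drugs differed between the probe sets. Its interaction was 1.35 ± 0.20 (adjusted p = 0.00996), close to the 1.31 of the main one. With both drugs this second probe set rose against 17-AAG (0.58 ± 0.13, adjusted p = 0.0258 in limma). Against Wee1 inhibitor II it did not pass (0.35 ± 0.13, adjusted p = 0.17). The main STIP1 probe set was called only against Wee1 inhibitor II. The second FKBP4 probe set with a mean signal over 100 did not pass in any comparison with control, at 0.18 ± 0.19 for both drugs, -0.12 ± 0.19 for 17-AAG and -0.30 ± 0.19 for Wee1 inhibitor II. Its interaction (0.61 ± 0.26, adjusted p = 0.236), its difference between both drugs and Wee1 inhibitor II (0.48 ± 0.17, adjusted p = 0.143) and that between both drugs and 17-AAG (0.31 ± 0.17, adjusted p = 0.319) did not pass either, where the main probe set was called in all 3. Further probe sets of TRAP1, CHORDC1 and FKBP4 had mean signals of 1.6 to 10.9, below the median of every array compared, and that of HSF1 had 26.9.

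**Figure D4:**
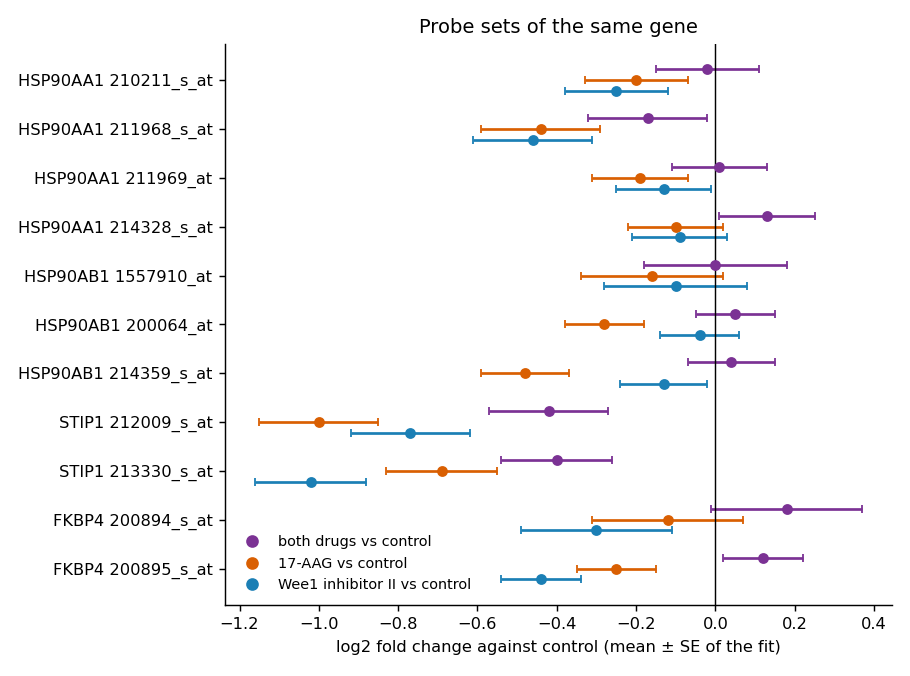
Log2 fold change against control, with its standard error, for each probe set with a mean signal of at least 100 of the 4 genes that have several. The HSP90AA1 probe sets spread from -0.46 to 0.13, and both STIP1 probe sets lie below 0 in all 3 comparisons.

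Other chaperone genes were counted from lists drawn up with earlier results of these data known. Of 34 measured further Hsp90 genes and co-chaperones, 7 rose and 8 fell with both drugs, 2 rose and 6 fell with 17-AAG, and 2 rose and 7 fell with Wee1 inhibitor II. The shares called were 44.1%, 23.5% and 26.5% in the same order, where 28.0%, 16.7% and 24.9% of all genes were called. The median change of the 34 was -0.11, -0.12 and -0.03, against 0.11, 0.01 and 0.12 for all genes. PPID, which codes for the immunophilin Cyp40, changed by -0.54 ± 0.14, -0.87 ± 0.14 and -0.89 ± 0.14 (adjusted p = 0.019, 0.00461 and 0.00233 in limma). CACYBP changed by -0.57 ± 0.10, -0.69 ± 0.10 and -0.67 ± 0.10 (adjusted p = 0.00292, 0.00317 and 0.00184). FNIP2, a folliculin partner that slows the Hsp90 ATPase, fell by 0.67 ± 0.10 with both drugs and by 1.62 ± 0.10 with Wee1 inhibitor II. FKBP5, the FKBP4 relative FKBP51, fell to a mean signal of 181 with both drugs, against 459 in control (-1.35 ± 0.12, adjusted p = 0.000141). AHSA2P, a relative of AHSA1, rose to 1000 with both drugs, against 467 in control (1.10 ± 0.10, adjusted p = 0.000106), and TSC1, another ATPase-slowing partner, rose by 0.90 ± 0.11. HSP90B1, the Hsp90 of the endoplasmic reticulum, did not pass at -0.16 ± 0.13, 0.16 ± 0.13 and 0.16 ± 0.13. The interaction was positive for 7 and negative for none of the 34 in limma, and for 12 and 2 at an unadjusted p under 0.05. Among them were PPID (1.22 ± 0.18, adjusted p = 0.00557), TOMM34 (0.85 ± 0.11, adjusted p = 0.00374) and CACYBP (0.79 ± 0.13, adjusted p = 0.00816). The share of the 34 called for the interaction was 20.6%, and that of all genes 11.8%. The 8 falls with both drugs became 5 without control replicate 1 and 4 without control replicate 3. The 6 falls with 17-AAG became 3 without control replicate 1. In a fit of only the arrays compared, which called 0 of all genes for 17-AAG, they became 0. The 7 rises with both drugs became 4 with each array centred on its median and 3 with probe sets averaged, and the 7 positive interactions 4 with probe sets averaged and 11 without the dimmest 40% of genes.

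Among heat shock factor targets outside the Hsp90 group, falls outnumbered rises with each single drug but not with both. Of 20 measured, 3 rose and 3 fell with both drugs, none rose and 10 fell with 17-AAG, and 2 rose and 8 fell with Wee1 inhibitor II. At an unadjusted p under 0.05, 1 was higher and 11 lower with 17-AAG in limma. The shares called were 30% with both drugs and 50% with each single drug, where 28.0%, 16.7% and 24.9% of all genes were called for both drugs, 17-AAG and Wee1 inhibitor II. The median log2 change of the 20 was 0.04, -0.36 and -0.29 in the same order, and that of all genes 0.11, 0.01 and 0.12. DNAJB1, an Hsp40 that delivers clients to Hsp70, had a mean signal of 889 with both drugs, 510 with 17-AAG, 725 with Wee1 inhibitor II and 1190 in control. It fell by 0.42 ± 0.09, 1.22 ± 0.09 and 0.72 ± 0.09 in the treated groups (adjusted p = 0.0104, 0.000375 and 0.00111). HSPH1, an Hsp110 that recharges Hsp70, fell by 0.76 ± 0.12 with 17-AAG and by 1.09 ± 0.12 with Wee1 inhibitor II. DNAJA1 fell by 1.12 ± 0.13 with 17-AAG and by 0.43 ± 0.13 with Wee1 inhibitor II. HSPB8 fell by 0.41 ± 0.08 with 17-AAG and by 1.08 ± 0.08 with Wee1 inhibitor II. HSPA4L fell by 2.12 ± 0.15 with Wee1 inhibitor II, to a mean signal of 35, and stood at 0.16 ± 0.15 with 17-AAG. The collagen chaperone gene SERPINH1 went the other way, rising by 2.00 ± 0.10 with both drugs and by 1.87 ± 0.10 with Wee1 inhibitor II while falling by 0.45 ± 0.10 with 17-AAG. The interaction was positive for 10 of the 20 and negative for none in limma (12 and 1 at an unadjusted p under 0.05), with DNAJB1 at 1.52 ± 0.13 (adjusted p = 0.000831), the small heat shock protein gene HSPB8 at 1.26 ± 0.11 (adjusted p = 0.000961), HSPA4L at 2.09 ± 0.20 (adjusted p = 0.00117) and HSPH1 at 1.62 ± 0.17 (adjusted p = 0.00148). The share of the 20 called for the interaction was 50%, and that of all genes 11.8%. The 10 falls with 17-AAG became 6 without control replicate 1, and the 3 falls with both drugs became 1 without either control. With control replicate 2 included the 10 falls became 2. In a fit of only the arrays compared, which called 0 of all genes for 17-AAG, they became 0. The 3 rises with both drugs became 1 with centring on the array median, with a replicate block, with probe sets averaged and with most arrays left out in turn.

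Chaperones that work apart from Hsp90 were counted for comparison. Of 12 measured subunits of the chaperonin TRiC and of prefoldin, 1 rose and 3 fell with both drugs, and 1 rose and 5 fell with each single drug. CCT2 changed by -0.50 ± 0.10, -0.46 ± 0.10 and -0.43 ± 0.10, and the riser was PFDN5 each time (0.93 ± 0.11, 0.41 ± 0.11 and 0.91 ± 0.11). Of 15 mitochondrial chaperones and proteases, the compartment of TRAP1, 2 rose and 5 fell with both drugs, none rose and 3 fell with 17-AAG (1 and 5 at an unadjusted p under 0.05 in limma), and 1 rose and 6 fell with Wee1 inhibitor II. HSPD1 and HSPE1 are also on the list of heat shock factor targets above. HSPE1 changed by -0.43 ± 0.11, -0.59 ± 0.11 and -0.87 ± 0.11 in that order and counts as a fall in both lists. HTRA2, a mitochondrial protease, fell by 0.97 ± 0.09 with both drugs and by 0.39 ± 0.09 with Wee1 inhibitor II, where AFG3L2, an inner membrane protease subunit, fell by 0.72 ± 0.09. PPIF, which codes for cyclophilin D, fell by 0.89 ± 0.18 with both drugs, 0.95 ± 0.18 with 17-AAG and 1.31 ± 0.18 with Wee1 inhibitor II. GRPEL1, the nucleotide exchange factor of mitochondrial Hsp70, fell by 1.09 ± 0.13, 0.70 ± 0.13 and 0.85 ± 0.13, while HSPD1, the mitochondrial chaperonin, stood at 0.10 ± 0.09, 0.04 ± 0.09 and 0.05 ± 0.09 and did not pass. Of 9 measured heat shock factors and regulators, 1 rose with both drugs and 1 rose and 1 fell with each single drug. The fall was that of VCP with 17-AAG (-0.80 ± 0.17) and with Wee1 inhibitor II (-0.61 ± 0.17). The shares called with both drugs, 17-AAG and Wee1 inhibitor II were 33.3%, 50% and 50% for TRiC and prefoldin. They were 46.7%, 20% and 46.7% for the mitochondrial list, and 11.1%, 22.2% and 22.2% for heat shock factors and regulators. Over all genes they were 28.0%, 16.7% and 24.9%. Without control replicate 1 or 3 the call of VCP was lost with each single drug, and the 5 TRiC and prefoldin falls became 0 with 17-AAG and, in turn, 3 and 1 with Wee1 inhibitor II. Those with 17-AAG also dropped, to 1 to 3, without 17-AAG replicate 1 or 3 or any array with both drugs. The 3 mitochondrial falls with 17-AAG became 0 without control replicate 3. With each array centred on its median, the TRiC and prefoldin falls numbered 7 with both drugs and 1 with 17-AAG, and the mitochondrial rises with both drugs 0. Quantile normalisation gave 5 TRiC and prefoldin falls with both drugs, and trended and robust empirical Bayes gave 7 with both drugs and 9 with 17-AAG.

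**Figure D5:**
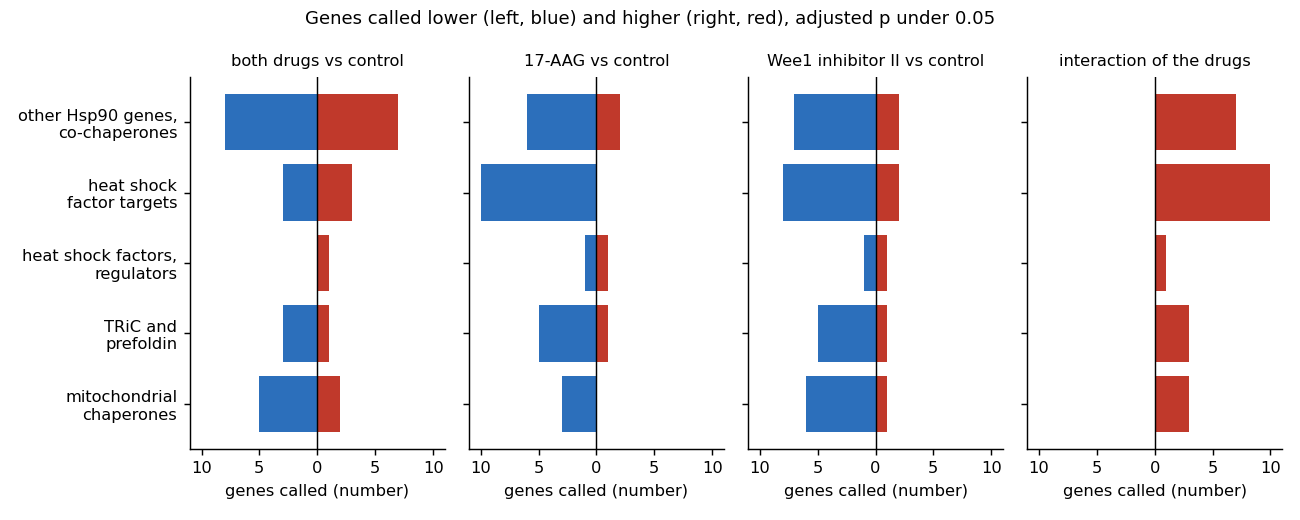
Number of genes called lower (bars to the left) and higher (bars to the right) in 5 gene lists for the 3 comparisons with control and for the interaction, where left and right stand for negative and positive. Of 20 heat shock factor targets 10 fell with 17-AAG, and the interaction was positive for 10.

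The genes whose log2 signal ran most like that of a member were sought among those with a mean signal of at least 100. Over the 11 arrays, which fall into 4 groups, CHORDC1 ran most like UAP1L1 (Pearson's r = 0.983), ERLIN2 (0.968) and SNAI2 (0.965). HSP90AB1 ran most like PRPF31 (r = 0.971), MFAP1 (0.951) and CENATAC (0.949). HSP90AA1 ran most like TIMM22 (r = 0.895), LARP1 (0.877) and GMFB (0.871), and HSF1 most like HSPD1 (0.831), ECSIT (0.803) and PDIA3 (0.784). Among the members themselves the highest coefficient was 0.94, between CHORDC1 and STIP1, followed by 0.89 between HSP90AB1 and CDC37, while TRAP1 and HSP90AB1 stood at -0.68. These are descriptions of 11 arrays, since all genes share the same arrays and group differences.

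Control replicate 2 carried other transcripts than the 11 arrays, with HOXB13 at 2090, EPCAM at 1100 and the pigment cell gene MLANA at 2.67. CTNNA1 and STAT3, reported deleted in PC3, were at 1.57 and 7.54. These values go with the PC3 label, while the epithelial markers ESRP1 (48.5) and CDH1 (5.55) were low. Including this array therefore puts unlike transcript profiles into the control group. The members on control replicate 2 are given as values only. CHORDC1 had a signal of 834 there and STIP1 660, below both controls compared and below the lowest array with both drugs. TRAP1 was at 369, HSP90AB1 at 4274 and HSP90AA1 at 8551, each below all 11 arrays, and CDC37 was at 951, above both controls. With this array included, no member was called against control or for the interaction by limma, where 4, 3 and 2 had been called with Wee1 inhibitor II, 17-AAG and both drugs.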

How the data were processed

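Per the labels, 100 ng of RNA per sample was reverse transcribed and given a biotin label with a 3-prime kit. The deposited values are linear signal intensities for each probe set. Partek 6.5 and RMA are listed, without steps, in the submitters' processing notes. Values range between 0.0212 and 17908, and all arrays share a trimmed mean of 150, unlike RMA output, so they were log2 transformed and not normalised again. Background correction and detection calls are not given in the sources used here. Of 54675 probe sets, 41091 carried 1 symbol, updated by gene ID, and the one with the highest mean over the 11 arrays stood for each of 19775 genes.

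limma 3.58.1 in R 4.3.3 fitted a mean per group over 11 arrays with 7 residual degrees of freedom, and errors of fold changes are its standard errors. The procedure was tested on simulated data. The members and gene lists were chosen with earlier results of these data known. The genes named were the 9 measured members and examples from each list. These examples were picked after their values were seen, from the called genes with the smallest p in a comparison. HSP90B1 and HSPD1 lie outside that rule, as do HSPA1A and HSPA1B, which were not measured. Alternatives were control replicate 2 included, a replicate block, quantile normalisation, centring on the array median, the dimmest 40% of genes left out, a floor of 32, averaged probe sets per gene, every probe set tested, trended and robust empirical Bayes, only the arrays compared, and each array left out. Nothing says that replicates were separate cultures, so p-values measure only the spread between these samples, and the small number of arrays limits the precision.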

Additional observations from a re-analysis of the deposited data

Results flagged for a closer look

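For 4 members the effect of each drug differed with and without the other by limma's test of the interaction. The interaction (log2) was 1.74 for CHORDC1, 1.31 for STIP1, 0.82 for FKBP4 and 0.56 for CDC37. On top of Wee1 inhibitor II, 17-AAG changed CHORDC1 by 0.66, STIP1 by 0.62, FKBP4 by 0.56 and CDC37 by 0.23, against -1.08, -0.69, -0.25 and -0.33 without it.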

How the results depend on the processing

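Of the 63 member fold changes, 1314 values were computed under the alternatives. In 1166 the call and direction were as reported, 90 lost the call, 56 gained one and 2 turned sign where one of the values was called. HSP90AA1, not called as reported (-0.00), was called at 0.26 for 17-AAG against Wee1 inhibitor II after quantile normalisation. FKBP4, called at 0.38 for both drugs against 17-AAG, stood at -0.27 and was not called (adjusted p = 0.683 in limma) with its probe sets averaged, 2 of them dim. A further 45 values of members not called changed sign.

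In the order both drugs, 17-AAG and Wee1 inhibitor II against control, both drugs against 17-AAG, both drugs against Wee1 inhibitor II, 17-AAG against Wee1 inhibitor II, then the interaction, the members called were 2, 3, 4, 4, 3, 1 and 4, and the genes called 5539, 3309, 4922, 3816, 2791, 3696 and 2331. With control replicate 2 included they were 0, 0, 0, 1, 0, 0 and 0 members and 1856, 480, 1268, 542, 389, 479 and 119 genes. With probe sets averaged per gene, members were 1 for both drugs, 1 for 17-AAG, 1 for Wee1 inhibitor II, 1 for both drugs against 17-AAG, 0 against Wee1 inhibitor II alone and 1 for the interaction, and genes 1768 for 17-AAG, 3215 for Wee1 inhibitor II, 2370 for both drugs against 17-AAG, 1664 against Wee1 inhibitor II alone, 2283 between the single drugs and 1099 for the interaction. With every probe set tested 8612 probe sets were called for both drugs.

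In a fit of only the arrays compared, limma called 0 genes for 17-AAG against control (4816 at an unadjusted p under 0.05) and 0 members (3 unadjusted). It called 2461 genes and 2 members for Wee1 inhibitor II, 2 members for both drugs against 17-AAG, and 2307 genes and 0 members between the single drugs (2 members unadjusted). With 2 controls that fit has 3 residual degrees of freedom. Members called were 4 for both drugs, 7 for 17-AAG and 4 between the single drugs without the dimmest 40% of genes, with the floor of 32 and with trended and robust empirical Bayes, which also called 5 for both drugs against Wee1 inhibitor II. Without the dimmest genes 3558 genes were called for the interaction. Quantile normalisation called 2 members between the single drugs. Centring on the array median called 1 member for both drugs against 17-AAG, 4 between the single drugs, and 2201 genes for 17-AAG and 1247 for the interaction. It also turned the share of calls that were higher to 40.6% for both drugs and 33.3% for Wee1 inhibitor II against control, 25.1% for both drugs against 17-AAG and 78.4% between the single drugs, against 59.7%, 58.5%, 56.3% and 45.6%. The cause of these shifts was not tested.

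With 1 array left out, members called ranged in the same order from 1 to 3, 1 to 6, 3 to 4, 3 to 4, 3 to 3, 0 to 2 and 3 to 5. Genes called ranged from 4009 to 5494, 1705 to 3159, 3225 to 4891, 2739 to 3590, 1996 to 2819, 2719 to 3453 and 1350 to 2223, and the lowest counts against control and for the interaction came without control replicate 3. The replicate block called 0 members between the single drugs and 1483 genes for the interaction. Samples with the same replicate number did not deviate together (r of -0.14 to 0.10 over 15 pairs, against -0.18 to 0.18 over 30 other pairs), and 2 of 11 arrays correlated best with their own number.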
